A study of Mus musculus with 78 samples.

Results

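Gene expression in the livers of mice that drank dichloroacetic acid (DCA) for 57 weeks was compared with that of mice given plain drinking water for as long. The libraries were chosen by their labels, those of 57 weeks of DCA (S3-57) and those of 57 weeks of drinking water (Control-57), and only libraries that the authors kept in their normalized table were used. This gave 5 of the 6 labelled S3-57 mice and all 6 Control-57 mice, 11 of the 78 deposited libraries, of which 68 were kept. All mice were male B6C3F1 mice, 4 weeks old when treatment began, with 1 library per mouse. DCA was given at 3.5 g/L for different lengths of time and livers were collected at set weeks, with controls of the same age. S3-57 livers were collected at the end of exposure, with no time on water after it. Used beside them were S1-57 (10 weeks of DCA, then 47 weeks of water, n = 6), S2-32 (32 weeks of DCA, collected at its end, n = 6) with Control-32 (n = 6), and S3-78 (57 weeks of DCA, then 21 weeks of water, n = 4) with Control-78 (n = 6). RNA was measured in lysates of long-archived liver sections fixed in formalin and embedded in paraffin, so each library holds all cells of its sections, and only 1 dose was given. TempO-Seq ligates 2 neighbouring probes where both sit on the same RNA and sequences the product, which gives a count for every gene of the panel. The labels name an attenuation panel, in which the signal of very abundant transcripts is damped, so changes are compared between mice. Where a gene is called the most abundant, this refers to its counts alone and not to its level in the tissue.

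DCA is a by-product of water chlorination and a drug for some disorders of mitochondrial metabolism. It inhibits the pyruvate dehydrogenase kinases, which switch off the pyruvate dehydrogenase complex by phosphorylation, and so favours the entry of pyruvate into the tricarboxylic acid (TCA) cycle. The liver stores glycogen, makes and oxidizes fatty acids, synthesizes cholesterol, secretes most plasma complement and clotting proteins, and converts foreign compounds into forms that can be excreted. Long exposure to high doses of DCA is known to cause liver tumours in mice.

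Depth separated the groups. Total counts were 1730337, 2030701, 1123317, 1539883 and 1584078 in S3-57 mice 49, 50, 51, 53 and 54, and 2223516 to 4153377 in Control-57, with a median of 2875739.5. The totals did not overlap (exact permutation test of the difference of means, 2-sided p = 0.00433, the smallest that 5 against 6 mice allow), so depth and treatment cannot be told apart. S3-57 libraries had 2134 to 2464 genes with a count, against 2441 to 2623 (exact permutation p = 0.0173). The 10 most abundant genes took 22.6% to 28.5% of counts in S3-57 and 19.9% to 45.6% in Control-57 (exact permutation p = 0.0303), and MUP8, a major urinary protein gene, was the most abundant in 4 of 5 and 5 of 6 mice. Mouse 52, the S3-57 mouse that the authors left out, had 491058 counts, 69.4% of them from MUP8.

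Markers of liver cells were present in every library. All 14 of the hepatocyte markers on the panel were detected, and their summed level was 92439.9 to 144014 CPM of the library total (counts scaled to a library of equal size) in S3-57 and 90805 to 137823 in Control-57, ranges that overlap. APOE, an apolipoprotein of plasma lipid particles, was the 1 hepatocyte marker that passed the test described below, and it fell (log2 fold change -1.11 ± 0.28, adjusted p = 0.00796). Mice 51 and 54 stood apart in markers of other tissues. Summed pancreas acinar markers (18 on the panel) were 74.6, 30.04, 468, 70.8 and 839 CPM of the library total in mice 49, 50, 51, 53 and 54, against 15.8 to 87.9 in Control-57. In mouse 51 the most abundant of them were CEL, a lipase (105), and CELA3B, an elastase (97.9), whereas in mouse 54 they were REG1 (407) and ZG16 (386), with CELA3B, CPA1 and PRSS2 at 0. Lymphocyte markers (14) summed to 1157 in mouse 54 and 1442 in mouse 84 of Control-57, with CORO1A, an actin-binding protein of leukocytes, the most abundant gene in both. The other S3-57 mice had 101 to 391 and the other controls 65.1 to 368. Cholangiocyte markers (4) were also highest in these mice, at 634 in mouse 54, mostly KRT19, a keratin of bile ducts, and 206 in mouse 84, mostly SPP1. Median log2 fold changes of tested markers were 1.14 for the cholangiocyte list (3 of 4 above 0) and 0.57 for the pancreas acinar list (9 of 10). For the skeletal muscle and nervous tissue lists they were 0.63 (4 of 7) and 0.39 (9 of 12), and none of these markers was a DEG. In such bulk samples, fewer cells of a type and less RNA per cell cannot be told apart.

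For the remaining cell types the ranges of S3-57 and Control-57 overlapped in each case. Macrophage markers (8, led by MPEG1) summed to 1014 to 6182 CPM of the library total in S3-57 and 836 to 10503 in Control-57, stellate cell and fibroblast markers (9, led by VIM) to 114 to 597 and 133 to 815, and endothelial markers (8, led by CLEC1B) to 216 to 710.2 and 254 to 628. Neutrophil markers (6) gave 69.4 to 381 and 56.5 to 386, erythroid markers (5) 555 to 1646 and 742 to 2071, adipose markers (4) 14.3 to 63.8 and 49.4 to 117, and nervous tissue markers (15) 149 to 470.3 and 76.3 to 211. Skeletal muscle markers (14, 7 of them tested and none a DEG) summed to 89, 111, 243, 314 and 138 in mice 49, 50, 51, 53 and 54, all above the 38.2 to 70.6 of 5 controls, and the groups overlapped only through mouse 84 (254). VIM, the intermediate filament vimentin, fell (log2 fold change -1.41 ± 0.40, adjusted p = 0.0216), and FABP4 of the adipose list is described below. No marker on the panel was at 0 in all 11 libraries. The part of depth and of these markers in the differences that follow was not tested, beyond the values given with mice left out, with total counts made equal and with a term for depth in the model.

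**Figure D1:**
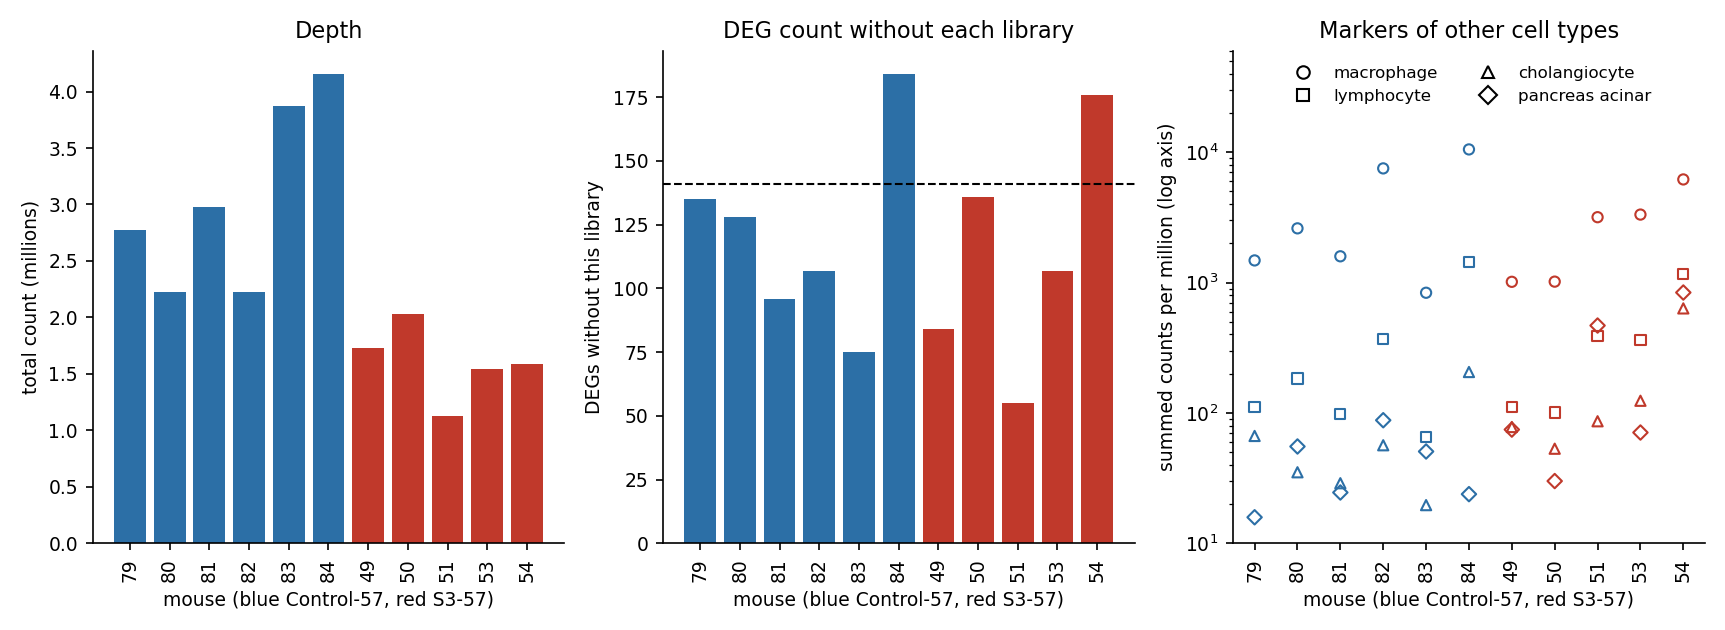
Total count (left), number of DEGs when that library is left out (middle, dashed line at 141 with all libraries) and summed marker levels on a log axis (right, CPM of the library total) for each mouse, blue for Control-57 and red for S3-57. All S3-57 totals lie below all Control-57 totals, the DEG count ranges from 55 without mouse 51 to 184 without mouse 84, and pancreas acinar markers are highest in mice 51 and 54.

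After 57 weeks of DCA, 141 of 2205 tested genes (6.39%) differed from Control-57, 63 higher (2.86%) and 78 lower (3.54%). Among the largest rises were PLCB3, a phospholipase C of receptor signalling, and CTNND1, the catenin p120 of cell junctions, and among the largest falls were C9, the pore-forming protein of complement, and DPM1, which makes the mannose donor of glycoprotein synthesis in the endoplasmic reticulum (ER). Differentially expressed genes (DEGs) are those with a fold change above 1.5 in either direction and an adjusted p of at most 0.05. The test was edgeR's quasi-likelihood test (n = 5 against 6). Throughout, ± gives an approximate standard error of a log2 fold change, back-calculated from that test's statistic. The fit draws the spread between mice from all 68 libraries, so ± does not show the spread of the compared mice alone. At an unadjusted p under 0.05 there were 424 genes (19.2%). The median log2 fold change was 1.34 over the higher DEGs, -1.26 over the lower DEGs and 0.0079 over all tested genes. No library of one group reached into the range of the other for 119 genes (5.4%), 63 of them higher (2.86%) and 56 lower (2.54%) in S3-57, and 77 of these 119 were DEGs (42 higher, 35 lower).

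Single mice decided much of the count. It was 55 without mouse 51, 75 without mouse 83 and 84 without mouse 49, and of the 55 DEGs without mouse 51, 52 were among the 141. In the 11 fits that left out 1 mouse each, all 141 genes kept their direction and 43 were DEGs every time. With all 78 libraries, mouse 52 included, 12 genes were DEGs, and without mice 51 and 54, the mice with the highest summed pancreas acinar markers, 52 were. DESeq2 called 247. The share of higher genes also moved with the scaling, from 63 higher and 78 lower to 90 and 67 with RLE factors, and to 54 and 102 when the 5 major urinary protein genes were left out of the table.

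The largest rises were taken among DEGs with at least 10 CPM (here scaled by TMM factors over the tested genes) in the mean of a group and with no overlap between the libraries, so the separation of the groups in these genes was part of the choice. S3-57 values are given in the order of mice 49, 50, 51, 53 and 54, and Control-57 values as the lowest, the median and the highest. PLCB3 (GRCm38 chromosome 19, 6952325 to 6976470, minus strand), which cleaves a membrane phosphoinositide downstream of G protein-coupled receptors, was at 70.1, 38.8, 92.01, 83.8 and 41.3 CPM in S3-57 and 2.59, 8.28 and 18.03 CPM in Control-57. Every DCA mouse lay above every control, and the log2 fold change was 2.73 ± 0.51 (adjusted p = 0.000386). ILF2, a partner in a complex that binds double-stranded RNA, was at 347, 283, 736, 186 and 247 CPM against 58.4, 105 and 123, with mouse 51 highest (1.91 ± 0.35, adjusted p = 0.000386). RBM15B, an RNA-binding protein, was at 367, 339, 378, 233 and 284 CPM against 57.9, 112 and 133, with all 5 DCA mice above every control (1.66 ± 0.34, adjusted p = 0.00160). PLCB3, ILF2 and RBM15B remained DEGs in every fit that left out 1 mouse, but each lost its call with all 78 libraries, mouse 52 included.

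CTNND1 (chromosome 2, 84600071 to 84650765, minus strand), which binds cadherins at the cell membrane, was at 3514, 2874, 9877, 2147 and 4534 CPM in S3-57 and 1058, 1295 and 1658 CPM in Control-57. Mouse 51 was more than double any other mouse, yet the lowest of these 5 DCA mice was above the highest control (1.78 ± 0.40, adjusted p = 0.00361). In mouse 52, where MUP8 took 69.4% of counts, CTNND1 was 0.0743% of counts. Its share was 0.295% to 1.28% in the kept S3-57 mice and 0.0750% to 0.190% in Control-57. The CTNND1 call ended with all 78 libraries. Mouse 51 was also the highest in AP2M1, the medium subunit of the clathrin adaptor AP-2 (284 to 1041 CPM against 95.8 to 226, 1.94 ± 0.46, adjusted p = 0.00641). In HDAC1, a histone deacetylase, the ranges were 14.5 to 70.7 and 7.41 to 13.3 CPM (1.77 ± 0.50, adjusted p = 0.0212), and in SF3A3, a splicing factor of the U2 particle, 170.3 to 559.6 and 72.8 to 114 CPM (1.73 ± 0.43, adjusted p = 0.00897). NUFIP1, which helps to assemble small nucleolar particles, had 27.5 to 78.96 against 7.33 to 19.3 CPM (1.66 ± 0.47, adjusted p = 0.0223), and NOLC1, a nucleolar phosphoprotein, 91.2 to 308 against 35.9 to 61.1 CPM (1.66 ± 0.35, adjusted p = 0.00190). Without mouse 51 the calls of CTNND1 (adjusted p = 0.0598), AP2M1 (0.0510), SF3A3 (0.0744) and HDAC1 (0.144) ended. The call of NUFIP1 ended without each of mice 51 and 80 (adjusted p from 0.0508 to 0.150), and that of NOLC1 was kept in all 11 fits. SPEN and WDR3 were not highest in mouse 51. SPEN, a transcriptional corepressor that binds RNA, was at 51.5 to 129 CPM against 22.2 to 37.8 (1.70 ± 0.43, adjusted p = 0.00988). WDR3, which acts in the making of the small ribosomal subunit, was at 41.7 to 80.4 CPM against 9.31 to 36.1 (1.70 ± 0.50, adjusted p = 0.0280), and its call ended without each of mice 49, 50, 51, 80, 81, 82 and 83 (adjusted p from 0.0508 to 0.0727).

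C9 (chromosome 15, 6445327 to 6498751, plus strand), made by hepatocytes, was at 3671, 6775, 1095, 4026 and 4233 CPM in S3-57 and 7577, 21571 and 47429 CPM in Control-57. The highest of these 5 DCA mice was below the lowest control, and mouse 51 was lowest (-2.69 ± 0.71, adjusted p = 0.0129, and 0.0617 without mouse 51). In mouse 52, which the authors left out, C9 was 0.999% of counts, although MUP8 took 69.4%. The share of C9 was 0.142% to 0.713% in the kept S3-57 mice and 1.03% to 3.44% in Control-57. With all 78 libraries the C9 call ended. DPM1 (chromosome 2, 168209048 to 168230591, minus strand) is the catalytic subunit of dolichol-phosphate mannose synthase. It was at 133, 292, 96.8, 157 and 313 CPM against 351, 1075 and 2057, and the change of -2.52 ± 0.41 (adjusted p = 8.45e-05) was called in every fit that left out 1 mouse. DPM1 was 0.0352% of counts in mouse 52, against 0.0126% to 0.0479% in the kept S3-57 mice and 0.0478% to 0.148% in Control-57. Its call was kept with all 78 libraries. MAN2B1, a lysosomal mannosidase that trims sugar chains, was at 79.96, 213, 81.02, 157 and 132 CPM against 391, 535 and 737. All 5 mice lay far below the controls (-2.04 ± 0.38, adjusted p = 0.000386). TMEM50A, a membrane protein, was at 101, 149.7, 82.4, 92.3 and 153 CPM against 240.1, 368 and 479, with the smallest standard error of the genes with the largest rises and falls shown here (-1.62 ± 0.27, adjusted p = 8.45e-05). FMO5, a flavin monooxygenase, was at 738, 1215, 626, 784 and 655 CPM against 1509.7, 2406 and 3512, highest in mouse 50 (-1.57 ± 0.29, adjusted p = 0.000386). MAN2B1, TMEM50A and FMO5 kept their calls in all 11 fits.

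Falls with ranges that did not meet were also measured in ANXA5 and ANXA7, annexins that bind membrane lipids with calcium (35.8 to 155 against 192 to 432 CPM, -1.72 ± 0.41, adjusted p = 0.00641, and 53.6 to 144 against 172 to 389 CPM, -1.56 ± 0.33, adjusted p = 0.00205). SKP1A, a subunit of ubiquitin ligases, fell by 1.57 on the log2 scale (adjusted p = 0.00160), although near-identical Skp1 sequences in the genome make its count uncertain. FAM69A was at 3.27 to 6.23 CPM against 12.5 to 47.2 CPM (-2.19 ± 0.57, adjusted p = 0.0126), which is 7 to 12 counts per S3-57 library. These 4 genes kept their calls in all 11 fits. Less stable were the calls of CLEC14A, a lectin of endothelial cells (5.49 to 28.1 against 38.9 to 103 CPM, -1.83 ± 0.57, adjusted p = 0.0375), FABP4, a fatty acid-binding protein of fat and endothelial cells (9.35 to 34.3 against 36.9 to 129.8 CPM, -1.72 ± 0.54, adjusted p = 0.0383), and AMY1, an amylase with near-identical relatives (69.1 to 206 against 207 to 647 CPM, -1.77 ± 0.57, adjusted p = 0.0487). The CLEC14A call ended without each of mice 49, 50, 51, 53, 80, 81 and 83 (adjusted p from 0.0539 to 0.140), the FABP4 call without each of mice 49, 50, 51, 53, 80, 81, 82 and 83 (adjusted p from 0.0571 to 0.115), and the AMY1 call without each of mice 49, 51, 53, 54, 79, 80, 81 and 83 (adjusted p from 0.0508 to 0.135). Over the 11 fits the log2 fold change ran from -2.17 to -1.58 in CLEC14A, from -1.92 to -1.51 in FABP4 and from -2.04 to -1.60 in AMY1. With RLE factors the adjusted p of FABP4 was 0.0772. Of the endothelial markers, 7 of 8 were below 0 (median log2 fold change -0.62). Their sums, led by CLEC1B, had a higher median in S3-57 (662 against 443 CPM of the library total), with mice 51, 53 and 54 above every control. These sums are not TMM-scaled, unlike the fold changes, so the 2 measures are on different scales. TMM factors were 1.05 to 1.53 in S3-57 and 0.70 to 1.36 in Control-57, and scaling lowers every S3-57 sum and raises those of all controls but mouse 84. The part of the endothelial markers in these falls was not tested.

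**Figure D2:**
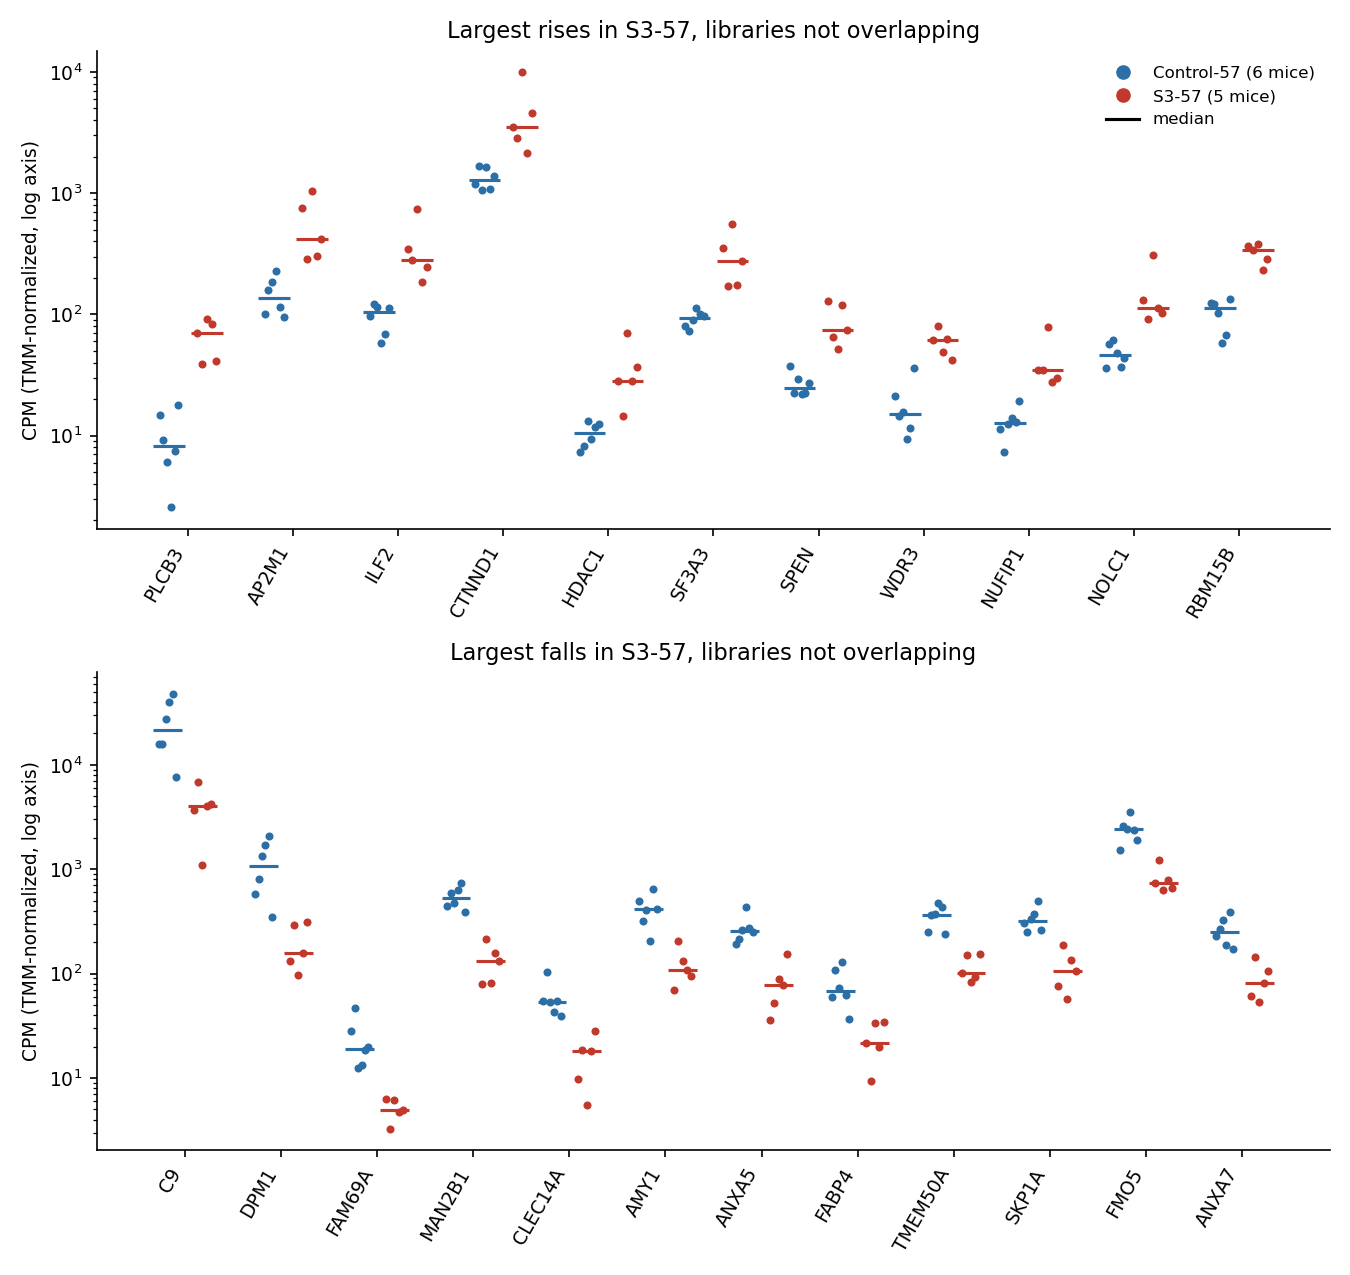
CPM of each mouse on a log axis for 11 of the 12 genes with the largest rises (top) and the 12 with the largest falls (bottom), blue for Control-57 (6 mice) and red for S3-57 (5 mice), with lines at the medians. In each gene the 2 groups do not overlap, which the choice of genes required.

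Of the 141 DEGs, 26 were in the gene lists examined and 115 in none. Each list is described by its DEGs and its median log2 fold change, beside 6.39% of DEGs (2.86% higher, 3.54% lower) and a median of 0.0079 over all tested genes. The kinases that DCA inhibits were not on the panel. Of the pyruvate dehydrogenase list, only PDHA1, DLD and PDHX, parts of the complex itself, were tested, none was a DEG, and their median was -0.61. None of the 16 glycolysis, gluconeogenesis and glycogen genes was a DEG (7 above 0 and 9 below, median -0.21, or -0.023 without mouse 51). In the respiratory chain and ATP synthase list, 3 of 22 genes fell and 1 rose, with a median of -0.65 and 17 of 22 below 0. NDUFB5 and NDUFA9 are subunits of complex I. NDUFB5 was at 270.0, 405, 134, 196 and 235 CPM in S3-57 and 316, 886 and 1652 in Control-57, with only mouse 50 inside the control range (-1.86 ± 0.42, adjusted p = 0.00361). NDUFA9 was at 456, 503, 595, 319.5 and 456 CPM against 509, 1014 and 1531, with only mouse 51 inside that range (-1.13 ± 0.27, adjusted p = 0.00641). Both were DEGs in all 11 fits.

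Cytochrome c (CYCS), which carries electrons between complexes III and IV and is also in the apoptosis list, was at 127, 101, 76.9, 134 and 163 CPM against 143, 278 and 404 (-1.11 ± 0.33, adjusted p = 0.0283). Mouse 54 lay inside the control range, and the call ended without each of mice 49, 50, 51, 53, 81, 82 and 83 (adjusted p from 0.0581 to 0.111) and with RLE factors (adjusted p = 0.0591). SDHA, the flavoprotein of complex II and a TCA cycle enzyme, went the other way, at 3121, 3872, 3679.6, 2756 and 1641 CPM against 1027, 1366 and 2228 (1.004 ± 0.28, adjusted p = 0.0216). All but mouse 54 were above every control, and the call ended without each of mice 50, 51, 80 and 82 (adjusted p from 0.0508 to 0.0780). The TCA cycle list of 8 tested genes also holds ME1 and ACLY, cytosolic enzymes that are not part of the cycle. On this list SDHA rose and ME1 fell, and the list median was 0.25. ME1, the cytosolic malic enzyme that supplies NADPH, was at 598, 734, 164, 568 and 319 CPM against 624, 1300.0 and 3675, with mouse 50 inside the control range (-1.80 ± 0.46, adjusted p = 0.0108), and its call ended without each of mice 51 and 83 (adjusted p from 0.0598 to 0.0607).

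In the list of fatty acid oxidation and targets of the lipid sensor PPARA, 2 of 23 genes fell and none rose (median -0.42, 15 below 0). DECR1, which prepares unsaturated fatty acids for oxidation in mitochondria, was at 180.2, 332, 106, 183 and 135 CPM in S3-57 and 306, 599 and 1104 in Control-57. Mouse 50 alone reached the control range (-1.75 ± 0.47, adjusted p = 0.0133), and the call ended without each of mice 51 and 83 (adjusted p from 0.0516 to 0.0648). ETFB, which takes up electrons from the acyl-CoA dehydrogenases, was at 474 to 856 against 740.3 to 1478 CPM (-0.76 ± 0.24, adjusted p = 0.0483), with mouse 50 inside the control range, and its call ended without each of mice 49, 51, 53, 54, 79, 80, 81 and 83 (adjusted p from 0.0523 to 0.171). EBP, a sterol isomerase, was the 1 DEG among 12 genes of cholesterol synthesis (9 below 0, median -0.38, or -0.19 without mouse 51). It was at 11.4, 61.7, 3.43, 21.8 and 18.998 CPM against 26.3, 138 and 265, with only mouse 50 inside the control range (-2.58 ± 0.57, adjusted p = 0.00322), and it was a DEG in all 11 fits. Among 10 genes of fatty acid and triglyceride synthesis, ME1 was the only DEG, with 5 above and 5 below 0, and the median of -0.036 was 0.017 with RLE factors and -0.13 without mouse 84. None of the 11 genes of bile acid synthesis and transport was a DEG (median 0.21, or 0.11 without the MUPs), but 1 was called lower with RLE or upper-quartile factors, without the MUPs, without mouse 84 and in DESeq2.

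Purine synthesis was covered by GART and PAICS, and both fell. HPRT, which salvages purines and is also among the 3 tested genes of this list, did not pass (list median -0.84). A pathway table in the study's supplement, made from these samples, lists purine synthesis, so its direction here is not independent evidence. GART, which carries out several steps of the pathway, was at 126, 113, 72.8, 116 and 148 CPM against 152, 208 and 274, and the groups did not overlap (-0.84 ± 0.24, adjusted p = 0.0220). PAICS, which acts later in the same pathway, was at 1.56, 1.40, 0, 1.89 and 1.65 CPM against 5.83, 8.87 and 15.1, which is 0 to 4 counts per S3-57 library (-2.80 ± 0.83, adjusted p = 0.0299). The GART call ended without each of mice 51 and 81 (adjusted p from 0.0662 to 0.107) and the PAICS call without each of mice 49, 50, 51 and 80 (adjusted p from 0.0510 to 0.106). With the 11 libraries thinned to the same total count the PAICS call was lost in both random draws (log2 fold change -2.07, adjusted p = 0.146 in the first).

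Of 54 genes of xenobiotic metabolism, 4 fell and 1 rose, with a median of -0.57 and 41 below 0, and DESeq2 called 2 higher and 8 lower. Besides FMO5, falls were called in UGT1A6A, ALDH9A1 and EPHX2. UGT1A6A, a glucuronosyltransferase whose probes may also bind other members of its gene cluster, was at 360.3, 710.5, 364, 560.0 and 598 CPM in S3-57 and 918, 1055 and 1219 in Control-57 without overlap (-1.05 ± 0.29, adjusted p = 0.0196), and its call ended without each of mice 49 and 51 (adjusted p from 0.0711 to 0.0860). ALDH9A1, an aldehyde dehydrogenase, was at 138 to 239 against 234 to 489.9 CPM (-0.89 ± 0.27, adjusted p = 0.0317), with mouse 53 inside the control range, and its call ended without each of mice 49, 51, 79, 81 and 83 (adjusted p from 0.0585 to 0.124). EPHX2, the soluble epoxide hydrolase, was at 4049, 8859, 3869, 4375 and 4576 CPM against 5803, 10950.2 and 17596 (-1.08 ± 0.35, adjusted p = 0.0499). Mouse 50 lay inside the control range, and the call ended without each of mice 49, 51, 53, 54, 79, 81, 82 and 83 (adjusted p from 0.0630 to 0.160). CYP2E1, a cytochrome P450 named after its values were seen, was at 3051 to 15065 CPM against 4775 to 20488 and was not a DEG (-0.40 ± 0.57, adjusted p = 0.795).

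The 1 rise of that list, SULT3A1, rested on 1 mouse. This sulfotransferase, which is more abundant in female than in male mouse liver and has a close paralogue, was at 7.27, 0, 1002, 11.8 and 8.26 CPM in S3-57 and 0.530, 2.18 and 5.17 CPM in Control-57. Mice 49, 53 and 54 were only a little above the highest control and mouse 50 was at 0, and the log2 fold change of 6.39 ± 1.36 (adjusted p = 0.00190) was 1.49 without mouse 51 (adjusted p = 0.598). Among 37 NRF2 targets and glutathione genes, PRDX1 and ME1 fell and none rose (median -0.20), and DESeq2 called 0 higher and 7 lower. PRDX1, a peroxiredoxin that reduces peroxides, was at 1466, 2035, 2034, 1641 and 1486 CPM against 2747, 3588 and 4751, with no overlap (-1.11 ± 0.29, adjusted p = 0.0126), and was a DEG in all 11 fits.

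In the secretory pathway, 2 of 22 ER chaperone and unfolded protein response genes fell and none rose (12 above 0, median 0.13, or 0.21 without mouse 51 and 0.041 without mouse 84), and DESeq2 called 2 higher and 2 lower. CANX, a chaperone that holds newly made glycoproteins, was at 1461, 2087, 1103, 1555 and 2376 CPM in S3-57 and 2953, 3486 and 4576 in Control-57. PPIB, a prolyl isomerase of the ER, was at 1563, 1851, 1521, 965 and 1901 CPM against 2007, 3936 and 4978. Neither gene overlapped between the groups, and both remained DEGs in all 11 fits (CANX -1.09 ± 0.23, adjusted p = 0.00190; PPIB -1.25 ± 0.31, adjusted p = 0.00743). DPM1 was the only DEG of 7 genes of dolichol-mannose and N-glycan precursor synthesis (median -0.15, or -0.041 without mouse 51). In the complement list, 2 of 13 genes fell and none rose (median -0.15), and without mouse 51 the median was 0.016 and neither was called, while 1 higher and 2 lower were called in DESeq2 and also without mouse 84. Beside C9 this was C8B, which joins the membrane attack complex just before C9. It was at 115, 286, 55.6, 204 and 275 CPM against 210.0, 995 and 1647, with mice 50 and 54 inside the control range (-2.37 ± 0.64, adjusted p = 0.0156), and its call ended without each of mice 49 and 51 (adjusted p from 0.0563 to 0.0747). None of 18 acute phase genes (6 at an unadjusted p under 0.05, median -0.20, or -0.47 without mouse 51) and none of 15 coagulation and serpin genes (0 at that level, median -0.22) was a DEG in edgeR, and DESeq2 called 2 and 0.

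The list of male-biased liver genes that depend on growth hormone, the major urinary proteins (MUPs) among them, also holds genes of growth hormone signalling. These are STAT5A (log2 fold change 0.12), STAT5B (0.033), SOCS2 (1.41), GHR (0.38) and IGF1 (0.30). C9 was the only DEG of the 17 genes on the list (median -0.64, or -0.41 without mouse 51). The MUPs are near-identical, so single members are uncertain. MUP8, named after its values were seen, was at 74673, 99084, 9720.4, 43704 and 46889 CPM in S3-57 and 20238, 171469 and 323696 in Control-57. The ranges overlapped, with mouse 84 the lowest control, and the gene was not a DEG (-1.67 ± 0.88, adjusted p = 0.298). Without the 5 MUPs in the table the list median was 0.00075, a value that includes the signalling genes. With the MUPs in the table, the remaining genes were CYP2D9 (-1.17), CYP4A12A (0.90), ELOVL3 (0.60), C8A (-0.15), C9 (-2.69), SERPINA3K (-1.49) and KEG1 (-0.64). Of 11 female-biased genes, SULT3A1 was the only DEG, and the list median of 0.25 was -0.67 without mouse 51, with 0 higher and 1 lower called, and 0.53 without mouse 84.

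In insulin, AMPK and mTOR signalling, 2 of 23 genes rose and none fell, with a median of 0.30 that was 0.032 without mouse 51. The calls of this list were 1 higher and 3 lower without the MUPs, 2 higher and 3 lower without mouse 84, 2 higher and 1 lower with upper-quartile factors, 4 higher and 2 lower in DESeq2 and 0 higher and 0 lower without mouse 51. AKT1, a kinase that carries the insulin signal, was at 2641, 2255, 4166, 1711 and 2243 CPM in S3-57 and 984, 1311 and 1544 in Control-57, without overlap (1.02 ± 0.31, adjusted p = 0.0343). Its call ended without each of mice 49, 51, 79, 81, 82 and 83 (adjusted p from 0.0540 to 0.188). CCNF, a cyclin that targets proteins for degradation, was the only DEG of 57 cell cycle genes (median 0.11, 0.041 without the MUPs and 0.068 without mouse 51). It was at 232, 236, 229, 261 and 33.04 CPM against 17.1, 49.1 and 137. Mouse 54 lay inside the control range (1.70 ± 0.55, adjusted p = 0.0483), and the call ended without each of mice 49, 50, 51, 53, 80, 81, 82, 83 and 84 (adjusted p from 0.0508 to 0.122). STUB1, a ubiquitin ligase that works with chaperones, was the only DEG of 16 heat shock genes, at 897, 714, 1478, 391 and 766 CPM against 335, 465 and 550.3 (0.90 ± 0.25, adjusted p = 0.0198). Mouse 53 lay inside the control range, and the STUB1 call ended without each of mice 51 and 84 (adjusted p from 0.0542 to 0.192). The heat shock median was 0.016, but -0.12 without mouse 51, -0.17 without mouse 84 and -0.066 without the MUPs. Heat shock calls were 0 higher and 2 lower without mouse 84, 1 higher and 1 lower without the MUPs and 2 higher and 2 lower in DESeq2. Cell cycle calls were 0 higher and 1 lower without mouse 84 and also without the MUPs, and 1 higher and 1 lower in DESeq2. CYCS was the only DEG of 29 p53 and apoptosis genes (median 0.064, -0.016 without the MUPs, 0.21 without mouse 51 and 0.23 without mouse 84), with 1 higher and 0 lower called under RLE or upper-quartile factors and 1 higher and 1 lower in DESeq2. CTNND1 was the only DEG of the list of 22 liver tumour and beta-catenin genes (median 0.075, -0.0089 without the MUPs, -0.011 without mouse 51 and 0.33 without mouse 84). It encodes p120 catenin, which binds cadherins, and not beta-catenin, so the list had no DEG in edgeR besides this cadherin partner. Calls of this list were 2 higher and 0 lower in DESeq2, and 0 higher and 0 lower without mouse 51.

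Lists without a DEG in edgeR differed in their medians. Of 27 collagen and extracellular matrix genes, 24 were below 0 (median -0.68, 4 at an unadjusted p under 0.05, 1 in DESeq2), and of 28 interferon-stimulated and antigen presentation genes, 19 were (median -0.51, 5 and 0). Without mouse 84, the control high in lymphocyte markers, these medians were -0.46 and -0.25. Of the stellate cell and fibroblast markers, 7 of 9 were below 0 (median log2 fold change -0.83). Of these 7, COL1A1, COL1A2, COL3A1 and LUM are also in the collagen list, which leaves 3 of 5 markers outside it, and their part in the collagen values was not tested. The 16 immediate-early genes had a median of 0.27 (0 at an unadjusted p under 0.05, 0 in DESeq2), which was 0.70 without mouse 84 and 0.021 without mouse 51. The 6 clock genes had a median of 0.11 (0 and 0), or 0.015 without the MUPs, 0.18 without mouse 51 and 0.24 without mouse 84. Without mouse 84, 1 interferon gene was called higher and 1 glycolysis gene lower. For the pyruvate dehydrogenase, glycolysis and bile acid lists, 0, 3 and 1 genes were under that level and DESeq2 called 0, 1 and 1.

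**Figure D3:**
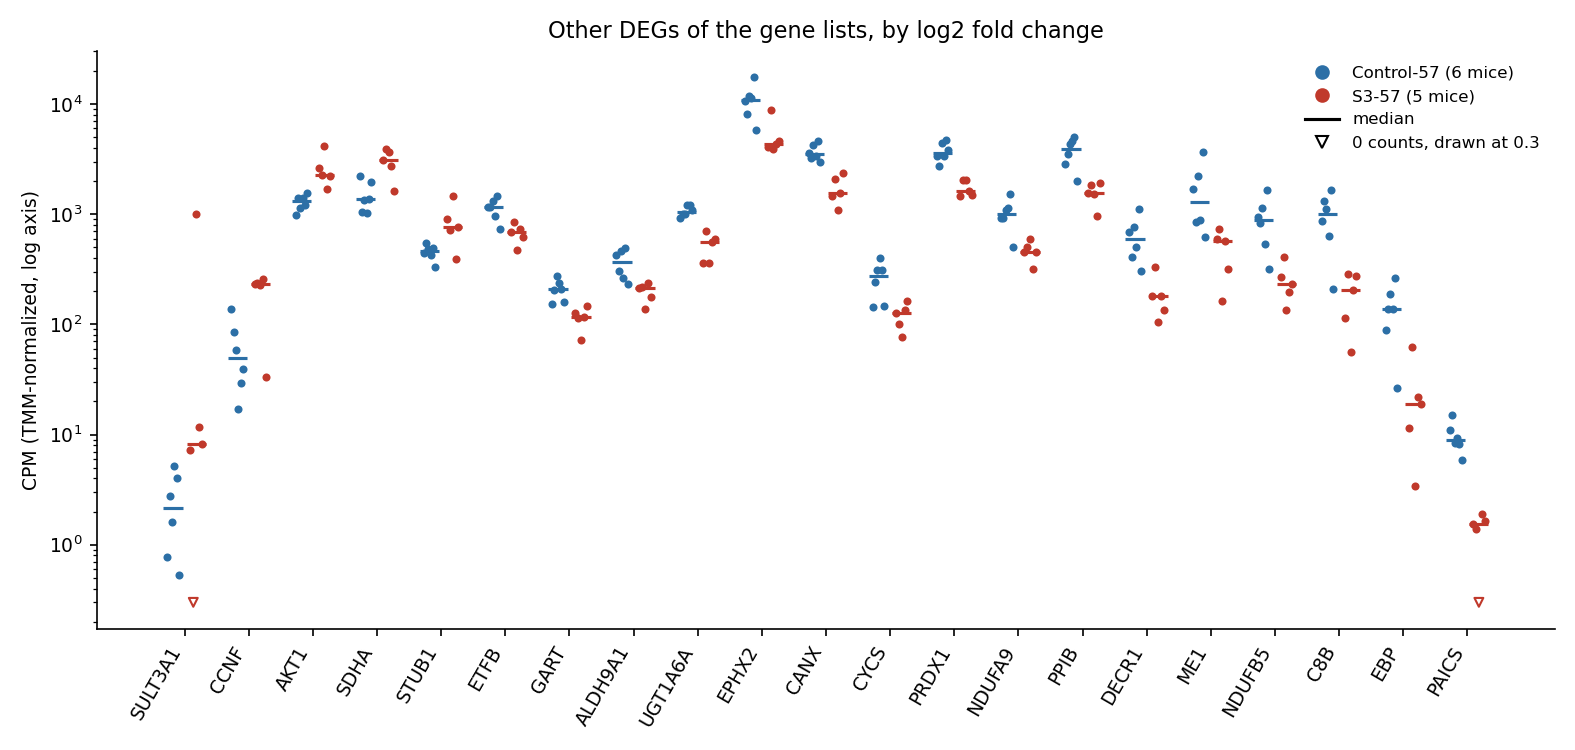
CPM of each mouse on a log axis for 21 of the 22 list DEGs that are not among the largest rises and falls, ordered by log2 fold change from SULT3A1 to PAICS, blue for Control-57 (6 mice) and red for S3-57 (5 mice), with lines at the medians and an open triangle for 0 counts. In SULT3A1 a lone S3-57 mouse, mouse 51, lies at 1002 CPM.

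**Figure D4:**
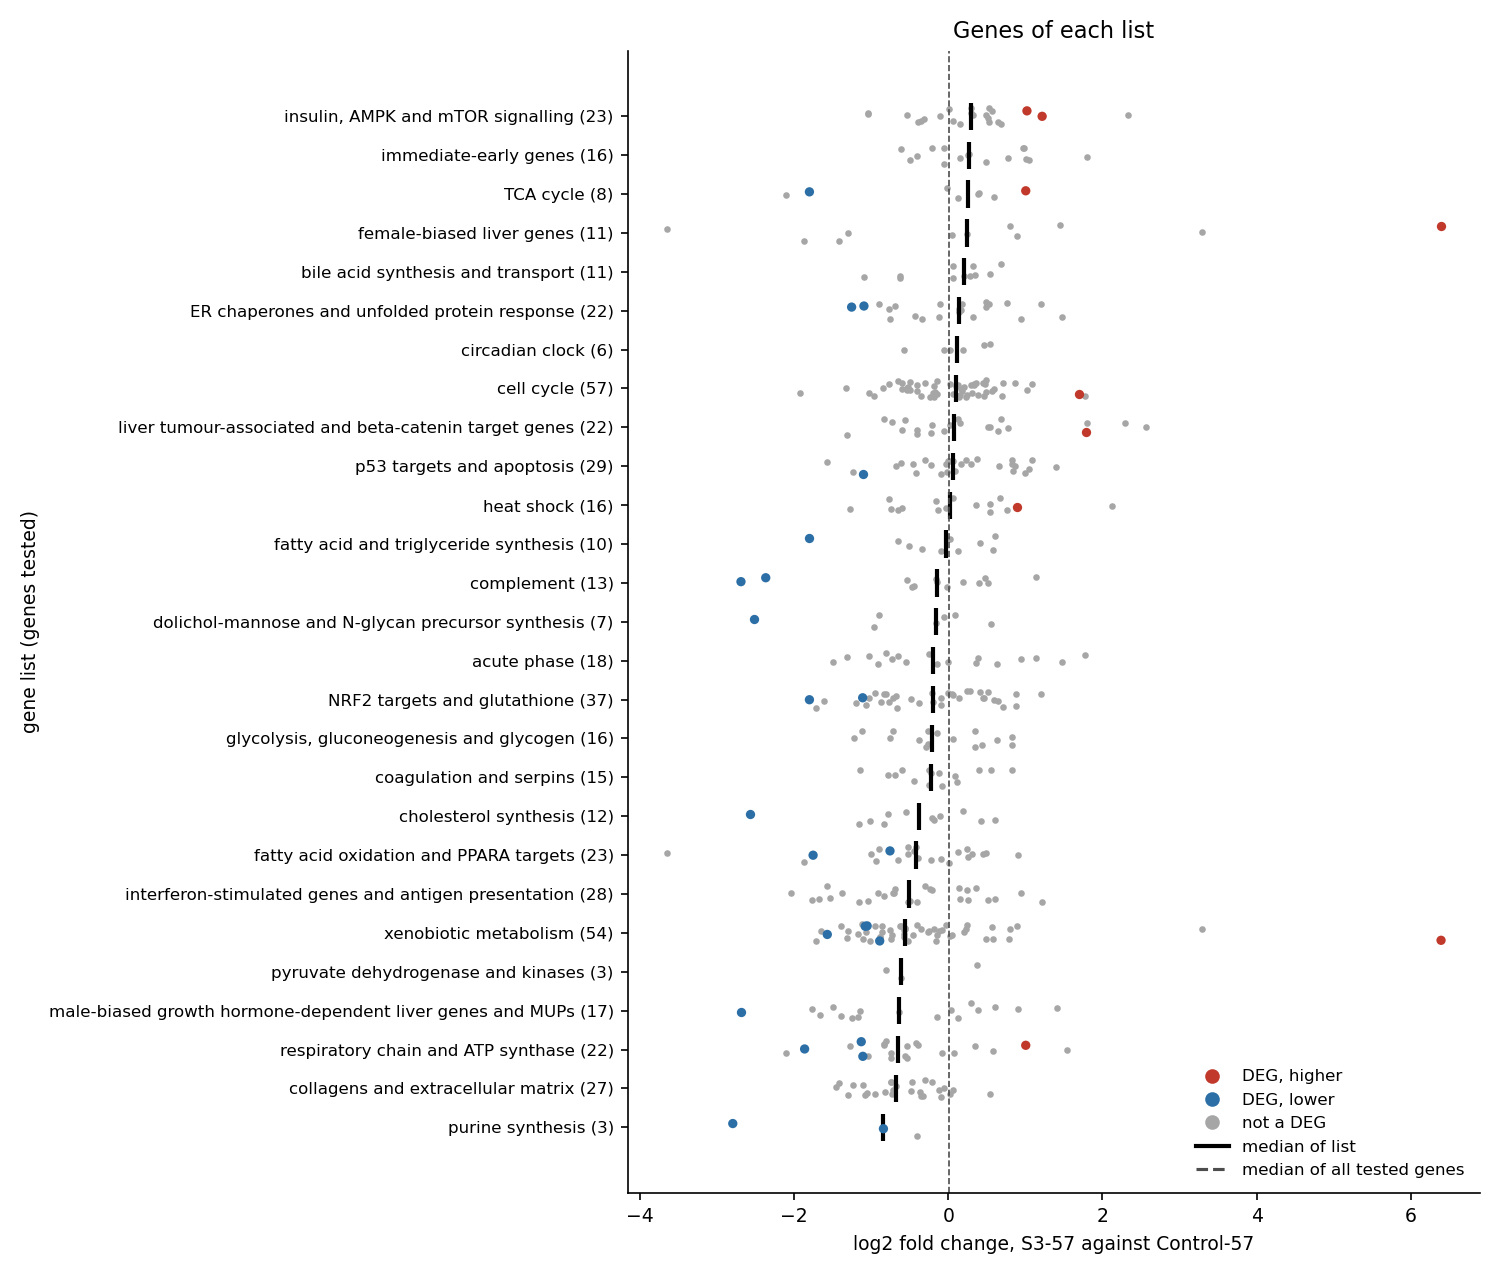
Log2 fold change in S3-57 against Control-57 of every tested gene of 27 lists, ordered by list median (black bars), with DEGs in red (higher) and blue (lower), other genes in grey and the median of all tested genes dashed. Collagens and the respiratory chain lie lowest among the larger lists, at medians of -0.68 and -0.65. DEGs are a minority of every list but the purine list of 3 genes.

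A further list was drawn mostly from genes that the study's text names for their expression. It is not complete, since a serpin gene named there is in the coagulation and serpin list alone, and 1 of its rises is not named in that text. Of its 10 tested genes, 2 rose and 2 fell, CTNND1, EBP and C9 among them (median 0.0060, or -0.48 without mouse 51 and 0.32 without mouse 84). SDPR, also called Cavin2, a coat protein of caveolae, was at 76.3, 57.998, 174, 49.2 and 114 CPM in S3-57 and 28.4, 45.6 and 84.2 in Control-57, with overlap (0.91 ± 0.32, adjusted p = 0.0706). It was not a DEG, but it was one with RLE factors (adjusted p = 0.0328), with upper-quartile factors (0.0402), in DESeq2 (0.0130) and in 1 of 2 draws of each thinning. Without mouse 51 its log2 fold change was 0.57 (adjusted p = 0.407). IRS1, the adaptor of the insulin receptor, was at 44.1, 97.8, 27.5, 48.3 and 90.4 CPM against 51.4, 142 and 176, also with overlap (-1.04 ± 0.35, adjusted p = 0.0622, and 0.0407 without the MUPs). COL1A1, a fibrillar collagen chain, ranged over 13.7 to 140.4 and 31.5 to 194 CPM (-0.82 ± 0.59, adjusted p = 0.506). COL4A1, a basement membrane collagen, was at 3.27 to 46.003 and 3.34 to 85.2 CPM, where the highest control, mouse 84, was far from the rest (0.022 ± 0.64, adjusted p = 0.996, and a log2 fold change of 1.60 without mouse 84). CEBPB, a transcription factor of the acute phase, was at 6856 to 30972 and 7578 to 29502 CPM (-0.010 ± 0.49, adjusted p = 0.998).

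Exposures of 32 and 57 weeks with controls of their own were set beside these changes. At the end of 32 weeks of DCA, S2-32 had 235 DEGs (10.7%), 76 higher (3.45%) and 159 lower (7.21%). Of these, 24 were also DEGs in S3-57, which is 17.02% of the S3-57 DEGs and 10.2% of the S2-32 DEGs, and all 24 had the same direction (4 higher, 20 lower). In S3-78, collected 21 weeks after 57 weeks of DCA, 294 genes were DEGs (13.3%), 129 higher (5.85%) and 165 lower (7.48%). Here 83 were shared, 58.9% of the S3-57 DEGs and 28.2% of the S3-78 DEGs, again all in the same direction (35 higher, 48 lower). Of the 141 S3-57 DEGs, 112 had the same sign in S2-32 and 136 in S3-78, where 57.9% and 66.9% of all tested genes did. Totals in S3-78 (1154431 to 1936370) also lay below all those of Control-78 (2098777 to 4285848), whereas S2-32 and Control-32 overlapped, so depth moves with the shared genes of S3-57 and S3-78 and its part was not tested.

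Genes lower in all 3 comparisons, as DEGs in each, numbered 11. Log2 fold changes in S3-57, S2-32 and S3-78 were -2.52, -2.07 and -2.17 for DPM1, -2.69, -2.46 and -3.12 for C9, -2.37, -1.71 and -2.83 for C8B, -2.58, -1.997 and -3.40 for EBP and -1.62, -0.72 and -1.23 for TMEM50A. The others, named because they are in this set, were CEBPZ, CREBBP, GM5806, IDE, NRAS and TIMM17A. DPM1 was at 241 to 484 CPM in S2-32 and 111 to 512 CPM in S3-78, against 379 to 2715 and 448 to 3010.0 CPM in their controls. CTNND1 was 0.26 ± 0.38 in S2-32 (adjusted p = 0.660) and 2.41 ± 0.42 in S3-78 (adjusted p = 0.000219), and the test of the difference between its S3-57 and S2-32 changes did not pass (adjusted p = 0.186).

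**Figure D5:**
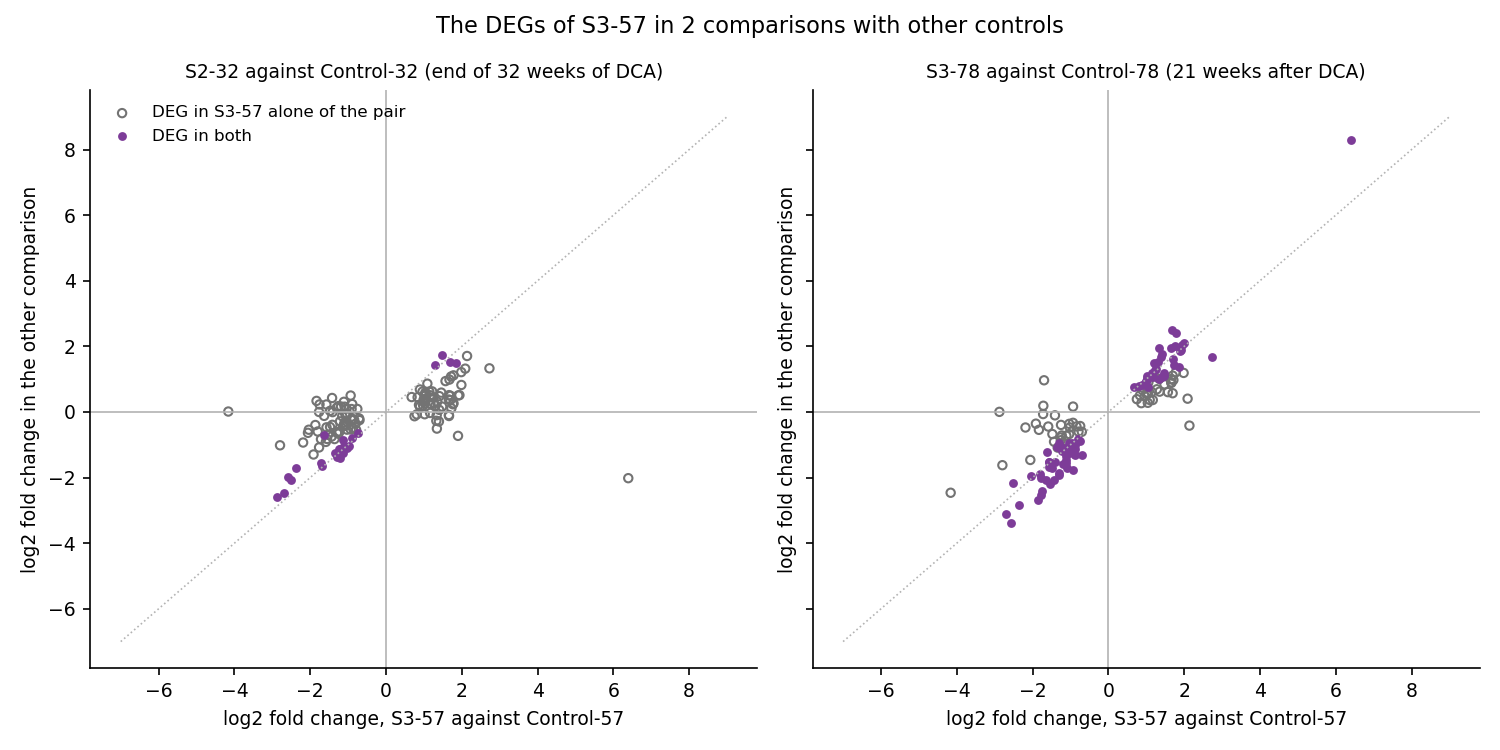
Log2 fold change of the 141 DEGs of S3-57 (x axis) against their log2 fold change in S2-32 (left) and S3-78 (right), each against its own controls, filled purple where the gene is a DEG in both and open where it is not, with a dotted line of equality. The purple genes, 24 on the left and 83 on the right, have the same sign on both axes.

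The change from control differed between S3-57 and S2-32 at an adjusted p of 0.05 or less in 2 genes (0.0907% of those tested), with 339 genes (15.4%) at an unadjusted p under 0.05. These were SULT3A1 (difference of log2 fold changes 8.41, adjusted p = 0.0242) and ORM3, an acute phase plasma protein of the orosomucoid family, named after its values were seen (7.68, adjusted p = 0.0102). ORM3 was at 72.7, 25.3, 66.6, 58.7 and 71.9 CPM in S3-57 and 6.41, 10.3 and 44.5 CPM in Control-57, which was not a DEG (1.78 ± 0.88, adjusted p = 0.253). In S2-32 it was at 0 to 0.778 CPM against 0 to 27.8 CPM in Control-32, so its difference rests on near-absent counts there. The count of 2 became 15 without mouse 41 of S2-32, 5 without mouse 74 of Control-32 or mouse 80 of Control-57, 4 without mouse 76 of Control-32 or mouse 50 of S3-57, and 1, ORM3, without mouse 38, 39, 51, 75, 79 or 84. It was 6 with RLE factors, which moved the median difference over all genes to 0.14, and DESeq2 gave 51. Counts thinned to the smallest of the 68 totals gave 6 in a first random draw and 3 in a second.

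Between S3-57 and S3-78 no gene differed in its change in edgeR (0%), although 162 genes (7.35%) had an unadjusted p under 0.05. DESeq2 called 1 (LTB, a lymphocyte cytokine, -6.16, adjusted p = 0.0253, named after its value was seen). Without mouse 54, which was high in lymphocyte and cholangiocyte markers, 7 genes differed. A p that misses the threshold does not show that the changes were alike. SULT3A1 was 8.30 ± 1.52 in S3-78 (adjusted p = 0.000299), where the libraries ran from 4.77 to 971 CPM with a median of 20.9. In ANXA5 the 2 changes were -1.72 ± 0.41 and -0.064 ± 0.42 (adjusted p of the difference = 0.578).

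S1-57 mice were of the same age as S3-57 mice but had drunk DCA for the first 10 weeks alone. Both groups share Control-57, so their values are set side by side and their lists are not overlapped. S1-57 had 35 DEGs (1.59%), 8 higher (0.363%) and 27 lower (1.22%). The direct contrast of S3-57 with S1-57 gave 0 DEGs in edgeR (0%). Of the 2205 tested genes, 111 had an unadjusted p under 0.05, close to the share that this level gives on average without any change. This does not show that the groups were alike. DESeq2 gave 7. Without mouse 28 of S1-57 there were 2 DEGs and without mouse 51 there was 1. Log2 fold changes from Control-57 in S3-57 and S1-57 were 2.73 and 1.99 for PLCB3, 1.78 and 1.27 for CTNND1, -2.52 and -1.65 for DPM1, -2.69 and -1.60 for C9, -1.62 and -1.35 for TMEM50A, -1.57 and -1.48 for FMO5, -1.86 and -0.91 for NDUFB5 and -2.58 and -1.49 for EBP, and -1.11 and -1.17 for CYCS and -1.05 and -1.10 for UGT1A6A, which were slightly further from 0 in S1-57. The list median of the respiratory chain was -0.65 and -0.26, that of xenobiotic metabolism -0.57 and -0.40, and that of the collagens -0.68 and -0.043. Further from 0 in S1-57 were the medians of the acute phase list (-0.20 and -0.50), the NRF2 list (-0.20 and -0.31), the ER list (0.13 and 0.39), bile acids (0.21 and 0.28), fatty acid and triglyceride synthesis (-0.036 and -0.11), heat shock (0.016 and 0.070), p53 and apoptosis (0.064 and 0.084) and liver tumour genes (0.075 and 0.085). Signs were opposite for pyruvate dehydrogenase (-0.61 and 0.33), glycolysis (-0.21 and 0.19), the TCA cycle list (0.25 and -0.080) and complement (-0.15 and 0.095). They were also opposite for dolichol-mannose synthesis (-0.15 and 0.020), the list of male-biased and growth hormone signalling genes (-0.64 and 0.021) and the list drawn mostly from the study's text (0.0060 and -0.23).

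Since depth separated S3-57 from Control-57, the 11 libraries were also thinned at random to the smallest of their totals, 1123317 counts, after the data were seen. This gave 134 and 136 DEGs in 2 draws, of which 124 and 128 were among the 141. In the first draw the calls of AMY1, CLEC14A, EPHX2, ETFB, FABP4, HDAC1 and PAICS were lost (adjusted p from 0.0529 to 0.146), and in the second those of AMY1, CCNF, EPHX2, ETFB and PAICS (0.0525 to 0.122). Log2 fold changes in the first draw went from -1.77 to -1.73 in AMY1, -1.83 to -1.76 in CLEC14A and -1.08 to -1.07 in EPHX2. They went from -0.76 to -0.73 in ETFB, -1.72 to -1.62 in FABP4, 1.77 to 1.53 in HDAC1 and -2.80 to -2.07 in PAICS. With log2 total count as a covariate there were 223 DEGs, 100 of them among the 141, and AKT1, AMY1, AP2M1, C8B, CLEC14A, CTNND1, ETFB, HDAC1, PRDX1, SF3A3, STUB1 and SULT3A1 were no longer called (adjusted p from 0.0502 to 0.352). With the covariate the log2 fold change went from 1.78 to 1.06 in CTNND1, 1.94 to 1.01 in AP2M1, 1.73 to 0.88 in SF3A3, -1.77 to -0.85 in AMY1, 1.02 to 0.57 in AKT1, 0.90 to 0.57 in STUB1 and 6.39 to 3.66 in SULT3A1. Other changes grew with it, such as WDR3 (1.70 to 2.78), NUFIP1 (1.66 to 2.37), FABP4 (-1.72 to -2.35), CYCS (-1.11 to -1.60) and SDHA (1.004 to 1.32), which stayed called. Of the genes that lost their call, less moved were PRDX1 (-1.11 to -0.80), C8B (-2.37 to -1.93), ETFB (-0.76 to -0.62), CLEC14A (-1.83 to -1.62) and HDAC1 (1.77 to 1.66). All 44 named DEGs kept their direction in these fits.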

How the data were processed

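TempO-Seq libraries of archived liver sections, 1 per mouse, were grouped by their labels. The deposited count table holds unscaled read numbers for 2755 genes in 78 libraries, which the authors obtained by matching reads to probes. The labels name Bowtie, Partek 10.0.22.0524, DESeq2 and the build mm10. The authors' normalized and filtered tables hold a signal, the count plus 1 divided by a median-ratio factor, and were used here only to choose 68 libraries and 2205 genes.

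The counts were fitted with edgeR 4.0.16 under R 4.3.3 (a quasi-likelihood model of 13 groups with TMM scaling, 2-sided tests, Benjamini-Hochberg adjustment over 2205 genes within a contrast). Differences between changes were interaction terms, called on the adjusted p alone. DESeq2 1.42.0 served as an alternative and Python 3.11.15 for tables. Coordinates are from GENCODE vM21 (GRCm38), in which 2161 of 2205 tested genes matched. The code was tested on simulated data with less spread between replicates than these data. No pair of replicates in S3-57 or Control-57 was a copy (smallest chi-square per degree of freedom 73.7 over 25 pairs).

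The genes named are the 12 largest rises and the 12 largest falls among DEGs with no overlap between groups and a mean of at least 10 CPM in a group, every DEG of a gene list, and the genes of a list drawn mostly from the paper's text. Of the genes this rule names, 3 are not reported here, 2 of them DEGs, though all counts of DEGs and list counts include them. The members of 27 gene lists and 12 marker lists were written from general knowledge and those of 1 gene list were taken mostly from the paper's text, with 1 tested gene that the text does not name and without 1 that it does, and the comparison, the rule and the lists were chosen with earlier results of these data known. ORM3, MUP8, CYP2E1, FKBP5, TYROBP and LTB were named after their values were seen. Outside the rule, APOE and VIM were named as DEGs of the marker lists. Members of the list of male-biased genes other than the MUPs and C9 were named to show what its median holds. CEBPZ, CREBBP, GM5806, IDE, NRAS and TIMM17A were named as DEGs lower in all 3 comparisons. For these genes, fits that left out 1 mouse are not given.

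Alternatives were scaling by RLE or by upper quartiles, 2 wider gene sets (every gene with a count, or those of filterByExpr), all 78 libraries, DESeq2 (also without its independent filtering), a fit of the compared groups alone, log2 total count as a covariate, the adjusted p alone, thinning to the smallest of the 68 totals, and each mouse left out in turn. Added after seeing the data were thinning of the 11 libraries, a second random draw of each thinning, the table without MUPs, and leaving out mice 51 and 54, or 54 and 84, together. The library that the authors left out of S3-57 was used only with all 78 libraries.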

Additional observations from a re-analysis of the deposited data

Results flagged for a closer look

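In 17 of 124 groups of values tested, the highest or the lowest mouse lay far from the others of its group by Dixon's test. By chance the test marks about 1 in 20 groups when values are independent and normally distributed. These groups share the same mice and hold genes chosen by their change, so the 17 are not read as an excess over that rate. Mouse 51 of S3-57 was such a mouse for SULT3A1 (1002 against 0 to 11.8 CPM in the other S3-57 mice), CEBPB (30972 against 6856 to 13204), NOLC1 (308 against 91.2 to 131), NUFIP1 (78.96 against 27.5 to 34.8) and, as the lowest, PAICS (0 against 1.40 to 1.89). Mouse 54 was the lowest for CCNF (33.04 against 229 to 261 CPM) and the highest for summed cholangiocyte (634 against 53.2 to 124 CPM of the library total) and lymphocyte markers (1157 against 101 to 391). Mouse 50 was the highest for EPHX2 (8859 against 3869 to 4576 CPM) and FMO5 (1215 against 626 to 784), and mouse 49 for erythroid markers (1646 against 555 to 864 CPM of the library total).

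Among the controls, mouse 84 was the highest for COL4A1 (85.2 against 3.34 to 11.7 CPM) and for cholangiocyte (206 against 19.6 to 66.6 CPM of the library total), lymphocyte (1442 against 65.1 to 368) and skeletal muscle markers (254 against 38.2 to 70.6). Mouse 80 was the highest for CLEC14A (103 against 38.9 to 54.2 CPM) and mouse 82 for ANXA5 (432 against 192 to 272). The cause of these values was not tested.

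The change from control differed between S3-57 and S2-32, by the interaction test, in ORM3 (7.68, adjusted p = 0.0102) and SULT3A1 (8.41, adjusted p = 0.0242). In the library that the authors left out, mouse 52 of S3-57, MUP8 took 69.4% of counts, against at most 22.6% in Control-57.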

How the results depend on the processing

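The 141 DEGs became 12 (5 higher, 7 lower) with all 78 libraries, 82 (50 higher, 32 lower) in a fit of the compared groups alone, 223 (124 higher, 99 lower) with log2 total count as a covariate, 247 (136 higher, 111 lower) in DESeq2 and 214 (121 higher, 93 lower) without its independent filtering. Alternatives chosen after the data were seen gave 52 (23 higher, 29 lower) without mice 51 and 54, 201 (88 higher, 113 lower) without mice 54 and 84, 156 (54 higher, 102 lower) without MUPs, and 134 and 136 in 2 random draws of the 11 libraries thinned to the same total. Thinning to the smallest of the 68 totals, 541245 counts, gave 125 and, in a second draw added later, 138. Other settings gave 126 to 159. Leaving out each mouse gave 55 to 184. The cause of these shifts was not tested.

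Genes that differed between S3-57 and S1-57 numbered 0, 7 in DESeq2 and 7 without its filtering, 1 without mice 51 and 54, 3 without mice 54 and 84, and 0 to 2 without each mouse. For the difference from S2-32, 2 genes became 6 with RLE factors, 0 with all 78 libraries (270 at an unadjusted p under 0.05), 51 and 38 in DESeq2, 21 with the compared groups alone, 1 with the covariate, 6 and 3 in the 2 draws of thinning to the smallest of the 68 totals, 5 without MUPs, and 1 to 15 without each mouse. For S3-78 the 0 became 1 in DESeq2 with or without its filtering, 5 without mice 54 and 84, and 0 to 7 without each mouse. The median difference over all genes moved to 0.14 (RLE) and 0.22 (upper-quartile) for S2-32, to -0.13 and -0.21 for S3-78, and to -0.12 (upper-quartile) for S1-57.

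Of 1322 recomputed fold changes of named genes, 1061 kept their direction and side of the threshold, 221 lost their call, 17 gained one and 23 changed sign. Calls of the 44 named DEGs were lost in 37 with all 78 libraries and 29 without mice 51 and 54, and in at most 12 under any other setting that kept all 11 mice. With all 78 libraries the 7 kept were AP2M1, DPM1, MAN2B1, SF3A3, SKP1A, SULT3A1 and TMEM50A. In a fit of the compared groups alone, the calls of ALDH9A1, CCNF, CYCS, EPHX2, ETFB, GART, ME1, SDHA and STUB1 were lost (adjusted p from 0.0631 to 0.110). PAICS had no adjusted p in DESeq2. Only COL4A1 and CEBPB, which were not DEGs, changed sign. COL4A1 (0.022) was -0.021 with all genes, -0.19 with all libraries, -0.14 in the second draw thinned to 541245 counts, -0.62 without mice 51 and 54, and -0.51 to 1.60 without each mouse. CEBPB (-0.010) was 0.057 with RLE factors and in DESeq2, 0.022 with upper-quartile factors, 0.017 with the compared groups alone, 0.020 and 0.010 in the second draws of the 2 thinnings, and -0.46 to 0.29 without each mouse. Mice carry unique numbers. No paired analysis was possible because no number is shared between groups.

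The tissue held by each section was not measured, and with 5 against 6 mice, a lower total count in every DCA mouse and 1 dose, the results describe these livers.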

Other observations

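Genes that the rule for named genes did not select also passed the test. TYROBP and FKBP5 were chosen after their values were seen. TYROBP, an adaptor of activating receptors on myeloid and natural killer cells, was at 90.3, 185, 221, 266 and 1435 CPM in S3-57 and 484, 1531 and 12747 CPM in Control-57 (-2.88 ± 0.71, adjusted p = 0.00747). Mouse 54 lay inside the control range, and the log2 fold change was -1.58 without mouse 82 of Control-57 (adjusted p = 0.148). Summed macrophage markers overlapped between the groups (1014 to 6182 and 836 to 10503 CPM of the library total) with a higher median in S3-57 (3174 against 2098). These sums are not scaled by TMM factors, which lower every S3-57 sum and raise those of all controls but mouse 84. In the fold changes, which are TMM-scaled, 6 of 8 macrophage markers were below 0 (median log2 fold change -0.50). FKBP5, a chaperone induced by glucocorticoids, was at 612, 385, 3531, 459 and 339.9 CPM against 204, 271 and 710.1 (1.67 ± 0.50, adjusted p = 0.0317). Mouse 51 stood far above the others, and without it the log2 fold change was 0.43 (adjusted p = 0.751). The call also ended without each of mice 79, 81, 82, 83 and 84 (adjusted p from 0.0539 to 0.0869).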
